A study of Zea mays with 12 samples.

Results

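The early water stress response was the comparison, 24 h after transplanting, of water-stressed with well-watered maize primary root tips. Its libraries were taken by their labels for treatment and time, and it holds 6 of the 12 RNA-seq libraries, 3 per treatment, with every gene row of the count table. Seedlings of the inbred line FR697 grew in darkness at 29 °C with 1 mM CaSO4, either well-watered (WW24, a medium at −0.02 MPa) or water-stressed (WS24, −1.6 MPa). The apical 12 mm of WW24 roots and the apical 7 mm of WS24 roots were harvested, because water stress shortens the zone in which cells elongate, and each library came from 50 to 100 mg fresh weight of pooled tips of an independent experiment. The other 6 libraries are the same treatments at 48 h (WW48 and WS48), and they were used here to estimate the spread between libraries and to set the 24 h response beside the later response. A well-watered segment cut to 7 mm was not analysed at 24 h, so the treatment and the segment length changed together and cannot be told apart. Stressed roots also elongated more slowly, and no well-watered sample of matching root length was collected for WS24. Root length, and any difference in development, therefore cannot be told apart from the treatment. In whole root tips, fewer cells of a type and less RNA per cell cannot be told apart either.

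The root elongation zone lies behind the meristem, where cells take up water and loosen their walls to expand. Maize primary roots are known to keep growing at water potentials that stop shoot growth, with growth maintained near the apex. Abscisic acid (ABA) is the plant hormone most closely tied to water deficit. It binds PYR/PYL receptors, which then hold back the protein phosphatases 2C (PP2C) and so free the SnRK2 kinases to activate bZIP transcription factors. Proline and sugars are solutes that lower the osmotic potential of cells, and late embryogenesis abundant (LEA) proteins, dehydrins and heat shock proteins protect other proteins and membranes during dehydration.

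Counts assigned to genes ranged from 40005384 to 47534273 per library at 24 h. The share of reads that the counting step recorded as not aligned was 13.7% to 23.1% in these 6 libraries, and the highest value was WS24 replicate 3, whereas the other 11 libraries of the series had at most 15.0%. WS24 replicate 3 also stood apart in mitochondrial transcripts, whose summed level was 299.2 CPM (counts per 1000000 of a library's scaled total) against 66.6 and 71.1 CPM in the other WS24 libraries and 71.2 to 83.2 CPM in WW24. Counts over all features are given with and without this library. The treatments were far apart on the first principal component, which held 73.6% of the variance over the 12 libraries in 14281 features and placed the WW24 libraries at −34.8 to −30.0 and the WS24 libraries at 38.3 to 42.7.

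At 24 h, 3988 of 26746 tested features (14.9%) were called different in abundance between WS24 and WW24. A feature was called increased or decreased when edgeR's quasi-likelihood test gave an adjusted p of at most 0.05 and the change was at least 1 on the log2 scale, a factor of 2. By this rule 2480 features increased (9.27% of those tested) and 1508 decreased (5.64%). Increases were also larger, with a median of 1.90 on the log2 scale against −1.61 for decreases. A change of 4 or more, on the log2 scale, was found in 418 increased features (16.9%) and in 112 decreased features (7.43%). Of the increased features, 2445 had no overlap between the libraries of both treatments, as had 1471 of the decreased features, while over all tested features WS24 lay wholly above WW24 in 27.8% and wholly below it in 26.8%. Without WS24 replicate 3, 2402 features increased and 1422 decreased. Without scaling factors between libraries, the median of all features moved from 0.01 to 0.15 on the log2 scale and the calls split into 2973 increased and 1208 decreased, or 71.1% increased in place of 62.2%.

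Increased features were mostly of low abundance in well-watered roots. Together they took 1.36% of gene counts in WW24 and 5.45% in WS24, while decreased features went from 6.03% to 2.32%. Among 4638 features with an average level under 1 CPM, 16.4% increased and 6.90% decreased. Such a feature could enter the test through the counts of a single group where it was high, and the part of this filter in these shares was not tested. Among the 600 features with 256 CPM or more, 1.67% increased and 5.83% decreased, so the most abundant transcripts decreased more often than they increased.

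**Figure D1:**
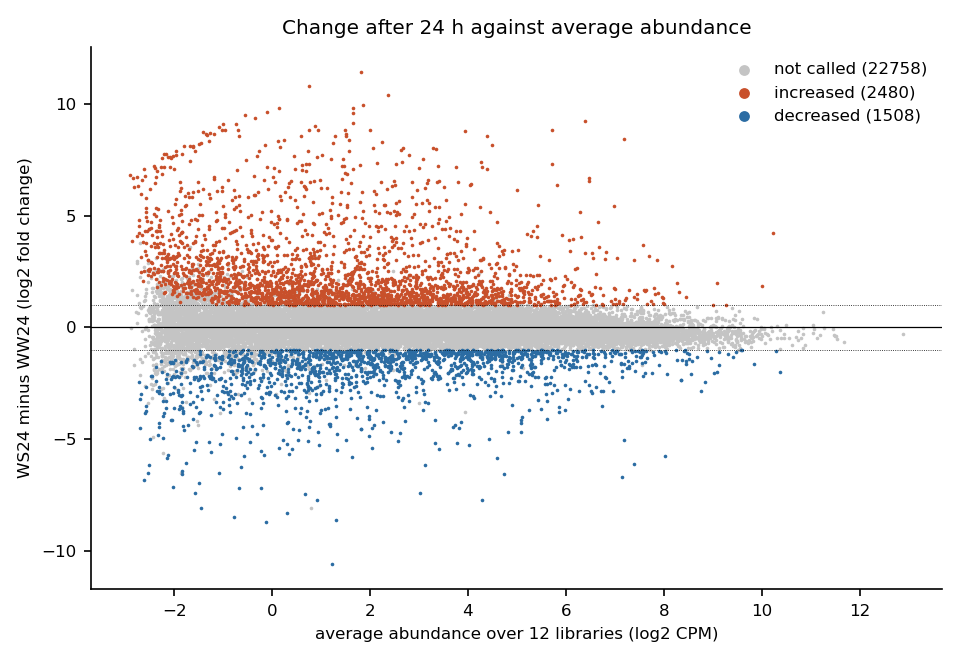
Change at 24 h (WS24 minus WW24, log2 scale, vertical axis) against the average level over 12 libraries (log2 CPM, horizontal axis), with a point per tested feature and dotted lines at a change of 1 in either direction. The 2480 increased features lie mainly at low abundance, and the diagonal at the upper left holds features with 0 counts in a treatment, whose fitted change is no measured fold.

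Names of genes are the descriptions that the study gave them, most of which are those of the closest Arabidopsis protein. Levels are in CPM and are given in the order of replicates 1 to 3. Each change is WS24 minus WW24 on the log2 scale with its standard error (SE). Outside the stated naming rule, 79 genes were chosen after their values were seen. Some of them moved in the main direction of their group and some against it. The values of these genes illustrate a group and do not measure it.

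The 8 widest increases came from described calls with an average log2 CPM of at least 2 and no overlap between treatments. The average was over all 12 libraries, so a gene near 0 in WW24 could pass through its stressed libraries. Separation of the treatments was a condition of the choice. Among the 8 were a dehydrin, a PEBP family gene, a beta-amylase and a transporter. The dehydrin Zm00001d037894, a protein of the family that protects dehydrating cells, had 1.77, 1.11 and 1.1 CPM in WW24 and 532, 468 and 403 CPM in WS24. Its lowest stressed library was far above its highest well-watered library, a change of 8.45 (SE 0.18, adjusted p = 1.34e-11). A PEBP family gene, Zm00001d010586, from the family of flowering regulators that includes FT, had 0.17, 0.557 and 0.366 CPM in WW24 and 227, 178 and 241 CPM in WS24, an increase of 9.23 (SE 0.26). Beta-amylase 1, Zm00001d014083, which releases maltose from starch, had 0.0638, 0.127 and 0.0916 CPM in WW24. It had 45.1, 49.4 and 32.5 CPM in WS24, an increase of 8.80 (SE 0.30). The ABC-2 type transporter Zm00001d028689 had 0.213, 0.0253 and 0.0687 CPM in WW24 and 34.7, 32 and 18.8 CPM in WS24, so that WS24 replicate 3 was the lowest stressed library but still far above every well-watered library.

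The 8 widest decreases, chosen under the same conditions, included both methylenetetrahydrofolate reductase genes named here, a myo-inositol oxygenase and a lipid-transfer protein. Methylenetetrahydrofolate reductase, which supplies methyl groups for methionine synthesis, was among them as Zm00001d029853, with 244, 276 and 287 CPM in WW24 and 2.54, 3.1 and 2.13 CPM in WS24. The lowest well-watered library was far above the highest stressed library, a change of −6.69 (SE 0.17, adjusted p = 8.37e-11). A gene with the same description, Zm00001d047124, decreased by 6.58 (SE 0.22). Myo-inositol oxygenase 1, Zm00001d046234, which opens the inositol ring on a route to wall sugars, had 425, 581 and 601 CPM in WW24. It had 10.1, 8.93 and 11.2 CPM in WS24, a change of −5.74 (SE 0.19). The lipid-transfer protein Zm00001d017508 fell from 316, 355 and 372 CPM to 4.02, 5.81 and 5.26 CPM, a change of −6.11 (SE 0.22). The deoxyhypusine synthase Zm00001d003994, an enzyme that modifies a translation factor, varied between well-watered libraries, at 6.45, 30.5 and 12.1 CPM, against 0.0442, 0.148 and 0.0245 CPM in WS24. Its change was −7.71 (SE 0.97), and the call was lost with limma-voom.

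In absolute terms the largest gain was in seed imbibition 2, Zm00001d019163, of the raffinose synthase and alkaline alpha-galactosidase family. It had 238, 100.1 and 116 CPM in WW24 and 2585, 2676 and 3202 CPM in WS24, an increase of 4.22 (SE 0.32). A hydroxyproline-rich glycoprotein, Zm00001d028998, from a class of structural wall proteins, increased from 453, 467 and 475 CPM to 1630.1, 1506 and 1827 CPM. The treatments did not overlap for either gene. The largest loss was in the glutathione S-transferase (GST) Zm00001d024839, an enzyme class that conjugates glutathione to reactive compounds, with 1696, 1862 and 1553 CPM in WW24 and 376, 471 and 429 CPM in WS24. The general regulatory factor Zm00001d003401, a phosphoprotein-binding adaptor, decreased from 1233, 1415 and 1466 CPM to 439, 445 and 432 CPM. Every stressed library of both genes was below every well-watered library.

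**Figure D2:**
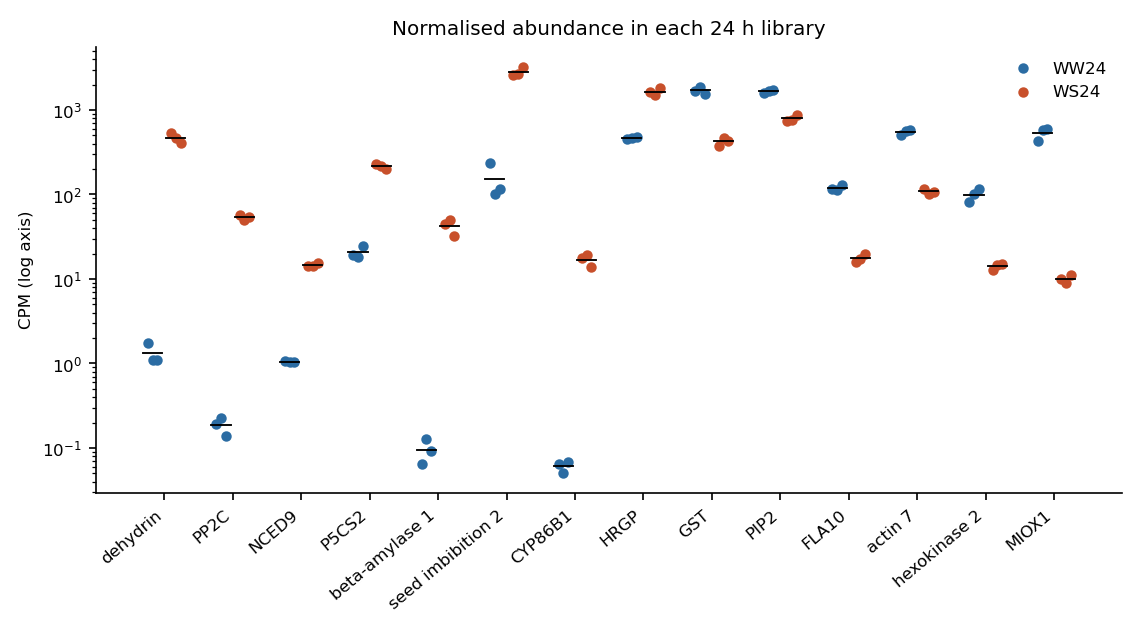
Level in CPM (log axis) of 14 genes in each library at 24 h, with a dot per library and a bar at the mean of the 3 libraries of a treatment. The treatments do not overlap in any panel, from the dehydrin at 1.1 to 1.77 CPM in WW24 and 403 to 532 CPM in WS24 to the GST at 1553 to 1862 CPM in WW24 and 376 to 471 CPM in WS24.

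Genes were then grouped by their descriptions. Most described genes were ones the study had listed as changed at 48 h, in a comparison that also used the WW24 libraries, so the counts of each group describe the response and are not independent evidence of its direction. Among 1375 tested genes with such a description, 722 increased (52.5%) and 538 decreased (39.1%), against 1742 (6.90%) and 958 (3.80%) of 25241 features without a description. The median change over all tested features was 0.01.

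**Figure D3:**
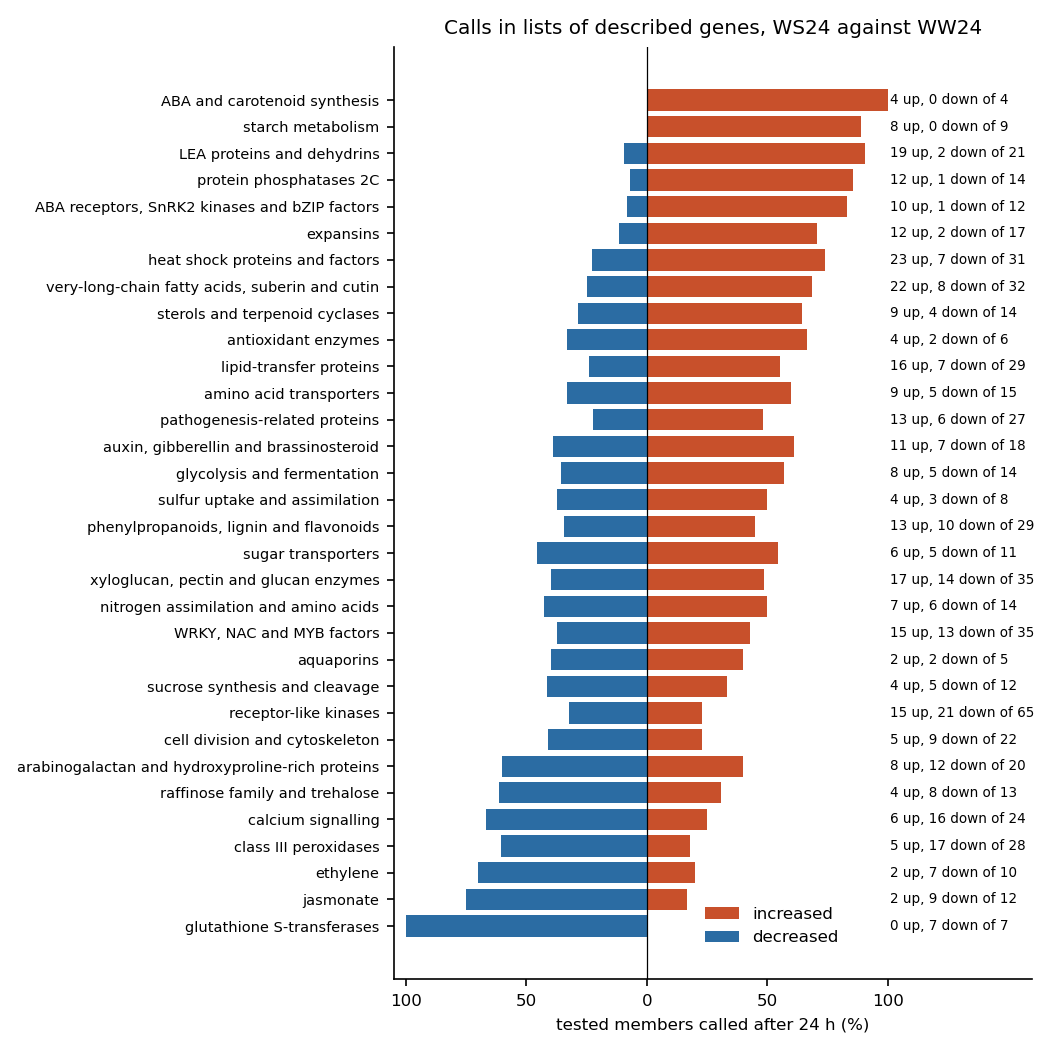
Share of tested members of each of 32 gene groups that increased (bars to the right, percent) or decreased (bars to the left, percent) in WS24 relative to WW24. Starch metabolism (8 of 9 increased), LEA proteins (19 of 21 increased) and GSTs (7 of 7 decreased) are among the groups that moved almost wholly in a single direction.

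All 4 described genes of carotenoid and ABA synthesis increased, with a median of 1.93 and a summed level of 42.8 to 50.4 CPM in WW24 and 135 to 147 CPM in WS24. Each was a gene the study had listed as changed at 48 h. Nine-cis-epoxycarotenoid dioxygenase 9, Zm00001d033222, of the family that cleaves carotenoids in the rate-limiting step of ABA synthesis, had 1.06, 1.04 and 1.05 CPM in WW24 and 14.3, 14.2 and 15.6 CPM in WS24. Its libraries were nearly identical within each treatment, and it increased by 3.80 (SE 0.28, adjusted p = 4.86e-07). Phytoene synthase, Zm00001d021410, the entry step of the carotenoid pathway, rose from 8.51, 7.87 and 8.31 CPM to 35.6, 31.6 and 36.7 CPM. Zeaxanthin epoxidase, Zm00001d003512, which makes the epoxycarotenoid precursors, increased by 1.78 (SE 0.13), and phytoene desaturation 1, Zm00001d015356, of the quinone synthesis needed by phytoene desaturase, increased by 1.15 (SE 0.09).

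The PP2C phosphatases, which are negative regulators of ABA signalling where they belong to the ABI1 and ABI2 group, had 12 increased and 1 decreased of 14 tested members, with a median of 2.34. Their summed level was 174 to 184 CPM in WW24 and 576 to 640 CPM in WS24. The widest increase was in Zm00001d025055, with 0.191, 0.228 and 0.137 CPM in WW24 and 57.4, 50.3 and 53.8 CPM in WS24, a change of 8.17 (SE 0.18). A homologue of ABI2, Zm00001d044301, was the more abundant and had 23.2, 21.5 and 21.6 CPM in WW24 and 102, 92.1 and 109 CPM in WS24. The decreased member, Zm00001d031329, had 36.4, 33.9 and 31.7 CPM against 16.1, 19.5 and 14.3 CPM, a change of −1.03 (SE 0.10), and this call was lost without WW24 replicate 1, without WS24 replicate 3 and without scaling factors.

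Of 12 ABA receptors, SnRK2 kinases and bZIP factors, 10 increased and 1 decreased, with a median of 2.15. The members that increased were 9 bZIP factors of the ABF and G-box binding groups and Zm00001d022069, of a family that binds the factor ABI5 in Arabidopsis. The ABA-responsive element-binding protein Zm00001d031790 had 12.5, 11.8 and 12.7 CPM in WW24 and 49.5, 47.4 and 51.6 CPM in WS24, an increase of 2.00 (SE 0.07). The receptor PYR1-like 2, Zm00001d016294, had 3.77, 6.63 and 4.44 CPM in WW24 and 1.46, 1.95 and 3.38 CPM in WS24, a change of −1.13 (SE 0.29). This decrease was lost without WW24 replicate 2, without WS24 replicate 1 and without scaling factors. The kinase SnRK2.10, Zm00001d016783, had a change of −0.79 (SE 0.09) and was not called.

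Delta-1-pyrroline-5-carboxylate synthase 2, Zm00001d012391, the rate-limiting enzyme of proline synthesis, had 19.4, 18.3 and 24.6 CPM in WW24 and 232, 218 and 203 CPM in WS24, an increase of 3.39 (SE 0.14) without overlap. Among 12 sucrose genes 4 increased and 5 decreased. Sucrose synthase 3, Zm00001d029091, which cleaves sucrose reversibly, rose from 16.4, 13.1 and 12 CPM to 160.5, 133 and 147 CPM. Sucrose phosphate synthase 1F, Zm00001d050125, of sucrose synthesis, rose from 179, 196 and 186 CPM to 518, 488 and 458 CPM. The glycosyl hydrolase of family 32 Zm00001d025943, from the family of the invertases, moved the other way, at 43.7, 49.2 and 49 CPM in WW24 and 1.15, 0.848 and 0.465 CPM in WS24, a change of −5.83 (SE 0.24). Cytosolic invertase 2, Zm00001d004804, decreased from 197, 213 and 237 CPM to 72.4, 67.2 and 71.5 CPM, and sucrose synthase 4, Zm00001d045042, the most abundant sucrose gene, had 719, 841 and 746 CPM against 402, 412 and 389.9 CPM without being called (−0.94, SE 0.14).

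Starch metabolism had 8 increased and 0 decreased of 9 tested members (8 and 1 with DESeq2), with a median of 1.85 and a summed level of 60.8 to 73 CPM in WW24 and 274 to 311 CPM in WS24. Genes of synthesis and of breakdown were both among them. A glucose-1-phosphate adenylyltransferase, Zm00001d039131, which makes the ADP-glucose used in starch synthesis, had 7.11, 6.89 and 5.47 CPM in WW24 and 73.8, 70.4 and 72.7 CPM in WS24, an increase of 3.48 (SE 0.13). Besides beta-amylase 1, starch branching enzyme 2.2 (Zm00001d016684), which adds the branches of amylopectin, increased by 3.03 (SE 0.15). The chloroplast beta-amylase Zm00001d029983 was the member without a call, with 10.3, 2.66 and 3.44 CPM in WW24 and 1.81, 2.33 and 3.45 CPM in WS24, where the treatments overlapped.

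In the raffinose and trehalose group 4 of 13 members increased and 8 decreased, with a median of −1.21, yet the summed level rose from 515 to 706 CPM in WW24 to 2783 to 3417 CPM in WS24 because of seed imbibition 2 (Zm00001d019163). Alpha-galactosidase 1, Zm00001d032608, which removes galactose from raffinose-type sugars, had 0.298, 0.253 and 0.115 CPM in WW24 and 32.7, 27.8 and 36.8 CPM in WS24. A further gene described as seed imbibition 2, Zm00001d003277, moved the opposite way, from 70.4, 92.1 and 97.8 CPM to 6.77, 7.81 and 6.24 CPM, a change of −3.64 (SE 0.15). The trehalose phosphate synthase and phosphatase genes that were called were all decreased, by 1.11 to 1.27 on the log2 scale.

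Of 11 sugar transporters 6 increased and 5 decreased, or 6 and 3 without scaling factors. Their summed level fell from 637 to 727 CPM in WW24 to 349 to 436 CPM in WS24. Sugar transporter 1, Zm00001d018627, a hexose uptake carrier, decreased from 246, 222 and 261 CPM to 71.3, 79.7 and 88.4 CPM. The MtN3 family member Zm00001d029135, of the SWEET sugar exporters, increased from 0.213, 0.582 and 0.412 CPM to 29.1, 25.6 and 54 CPM, with WS24 replicate 3 the highest library. Glycolysis and fermentation genes had 8 increased and 5 decreased of 14, with a summed level of 311 to 405 CPM in WW24 and 275 to 301 CPM in WS24. Hexokinase 2, Zm00001d037689, which phosphorylates glucose, had 80.7, 103 and 115 CPM in WW24 and 12.7, 14.6 and 15.2 CPM in WS24, a change of −2.81 (SE 0.13). Phosphofructokinase 2, Zm00001d025659, of the committed step of glycolysis, had 0.511, 0.253 and 0.344 CPM in WW24 and 15.3, 12 and 12.4 CPM in WS24, an increase of 5.14 (SE 0.27). The levels of both genes were separated by treatment, in opposite directions.

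Nitrogen and amino acid metabolism had 7 increased and 6 decreased of 14 members. Glutamate decarboxylase, Zm00001d031749, which makes gamma-aminobutyric acid, had 48, 72.5 and 59.1 CPM in WW24 and 486, 432 and 517 CPM in WS24, an increase of 3.00 (SE 0.14). Glutamine synthase clone R1, Zm00001d033747, which assimilates ammonium, rose from 14, 7.54 and 6.46 CPM to 145, 130.0 and 145 CPM. Glutamate dehydrogenase 1, Zm00001d034420, which can release ammonium from glutamate, decreased from 647, 900.0 and 882 CPM to 199, 196 and 197 CPM, a change of −2.04 (SE 0.13). Nitrate reductase 1, Zm00001d018206, the entry step of nitrate reduction, increased from 0.0426, 0.152 and 0.115 CPM to 5.7, 6.58 and 9.95 CPM, and nitrite reductase 1, Zm00001d018161, of the step after it, increased by 2.18 (SE 0.16). Nitrate transporter 2.4, Zm00001d014976, a high-affinity uptake carrier in Arabidopsis, had 6.6, 9.77 and 5.61 CPM in WW24 and 1.06, 0.764 and 1.13 CPM in WS24. Amino acid transporters had 9 increased and 5 decreased of 15, and amino acid permease 2, Zm00001d053143, rose from 2.47, 2.15 and 2.38 CPM to 30.4, 26.3 and 37.7 CPM.

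LEA proteins and dehydrins had 19 increased and 2 decreased of 21 members, with a median of 3.24. Their summed level was 511 to 610 CPM in WW24 and 2408 to 2500 CPM in WS24. The most abundant dehydrin, Zm00001d051420, had 219, 223 and 245 CPM in WW24 and 975, 878 and 855 CPM in WS24, an increase of 1.98 (SE 0.10). The LEA gene Zm00001d038870 rose from 0.0426, 0.177 and 0.229 CPM to 23.6, 16.5 and 23 CPM. A CAP160 gene, Zm00001d032519, named for a spinach cold acclimation protein, had a total of 1 count in the WW24 libraries and 1083 counts in the WS24 libraries, a ratio of 1058 with a 95% counting interval of 189 to 41819. The decreased members were the neighbouring IDs Zm00001d041984, with 103, 66.4 and 89.9 CPM against 16.7, 31.7 and 33.3 CPM, and Zm00001d041985, with 97.1, 72.1 and 81.4 CPM against 22.5, 37 and 32 CPM.

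Heat shock proteins and factors had 23 increased and 7 decreased of 31 members, with a median of 2.12 and a summed level of 519 to 648 CPM in WW24 and 1487 to 1752 CPM in WS24. These chaperones keep other proteins folded. The HSP20-like gene Zm00001d018298 had 4.15, 4.15 and 4.26 CPM in WW24 and 73.6, 80.1 and 63.7 CPM in WS24, an increase of 4.11 (SE 0.18). Heat shock protein 70, Zm00001d042922, rose from 2.23, 4.86 and 3.89 CPM to 95.8, 84.9 and 74.1 CPM, and heat shock protein 90.1, Zm00001d024903, from 0.17, 0.987 and 0.344 CPM to 12.8, 8.61 and 9.22 CPM. Heat shock transcription factor C1, Zm00001d016255, rose from 1.4, 0.0759 and 0.0229 CPM to 41.5, 47.7 and 45.5 CPM. The spread in WW24 was wide for this gene, but its highest well-watered library was far below the stressed libraries. The 7 decreased members were 5 DnaJ-type cochaperones, an HSP20-like gene and BCL-2-associated athanogene 3 (Zm00001d035999).

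Catalase 1, Zm00001d054044, which breaks down hydrogen peroxide, had 73, 34.6 and 34.4 CPM in WW24 and 414, 402 and 479.6 CPM in WS24, an increase of 3.19 (SE 0.35). Catalase 2, Zm00001d027511, rose from 0.34, 0.304 and 0.252 CPM to 6.61, 8.93 and 8.29 CPM. Of 6 antioxidant genes 4 increased and 2 decreased, the decreased genes being thioredoxin 2 (Zm00001d052034, −1.64, SE 0.31) and the atypical thioredoxin Zm00001d022518 (−1.74, SE 0.14), both thiol reductants. All 7 genes described as GSTs decreased, with a median of −2.18 and a summed level of 1739 to 2114 CPM in WW24 and 405 to 499 CPM in WS24. Each was a gene the study had listed as changed at 48 h, and any GST without a description was not counted. The widest GST decrease was in GST TAU 18, Zm00001d029696, from 45.8, 32.7 and 16.6 CPM to 1.02, 0.764 and 1.25 CPM.

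Class III peroxidases act in the wall, where they oxidise phenolic compounds with hydrogen peroxide during stiffening and lignin formation. They had 17 decreased and 5 increased of 28 members, with a median of −1.43. Their summed level fell from 3287 to 4164 CPM in WW24 to 1398 to 1707 CPM in WS24. Zm00001d040581 had 647, 812 and 873 CPM in WW24 and 122, 149 and 159.8 CPM in WS24, a change of −2.44 (SE 0.13), and Zm00001d022458 had 681, 965 and 899 CPM against 176, 213 and 254 CPM. Some members appeared that were at or near 0 in well-watered roots. Zm00001d049071 had 0 counts in all WW24 libraries and 1028 counts in WS24, at 7.94, 6.26 and 9.15 CPM. Set against a floor of 3 counts over the 3 WW24 libraries, it was 335-fold higher in WS24. The 95% counting interval of its ratio had a lower limit of 272. Zm00001d037359 had 0.191, 0 and 0.137 CPM in WW24 and 45.2, 32.2 and 11.9 CPM in WS24, so that WS24 replicate 3 was the lowest stressed library.

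Sulfur genes, which supply cysteine and glutathione, had 4 increased and 3 decreased of 8. Sulfate transporter 3;1, Zm00001d027749, had 25.8, 36.4 and 33.9 CPM in WW24 and 165, 148 and 197 CPM in WS24, an increase of 2.41 (SE 0.14), and adenosine phosphosulfate kinase 3, Zm00001d048785, which makes the donor for sulfation, increased by 2.86 (SE 0.29). Serine acetyltransferase 2;1, Zm00001d028154, which makes the precursor of cysteine, decreased from 24.1, 20.2 and 24.2 CPM to 3.89, 2.61 and 1.96 CPM. Sulfate transporter 91, Zm00001d002038, decreased by 2.90 (SE 0.41).

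Expansins, which loosen walls without cutting polymers, had 12 increased and 2 decreased of 17 members, with a median of 1.87 and a summed level of 282 to 343 CPM in WW24 and 933 to 1281 CPM in WS24. Expansin A1, Zm00001d043047, had 119, 156 and 152 CPM in WW24 and 511, 493 and 696 CPM in WS24, an increase of 1.99 (SE 0.18). Expansin B2 genes were among the increased members, with Zm00001d047096 at 41.5, 49.4 and 47.2 CPM against 149.6, 158 and 182 CPM. Another, Zm00001d026170, had 0 counts in WW24 and 142 counts in WS24, which is 46.2-fold over the same floor of 3 counts. The decreased expansins were expansin 11 (Zm00001d035111), from 1.72, 1.47 and 3.48 CPM to 0.133, 0.148 and 0.122 CPM, and the expansin B2 gene Zm00001d047091, from 19.6, 29.2 and 31.2 CPM to 9.29, 9.25 and 16.4 CPM. Near-identical copies of expansin B2 may share reads, so their separate values are uncertain.

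Enzymes of xyloglucan, pectin and glucans had 17 increased and 14 decreased of 35, with a median of 1.01. A pectin lyase-like gene, Zm00001d044110, from a family that cuts pectin, rose from 1.66, 1.32 and 1.67 CPM to 13.8, 14.4 and 14 CPM, whereas 6 of 7 xyloglucan endotransglucosylase/hydrolases, which cut and rejoin xyloglucan, decreased. Structural wall proteins split by type. All 8 increased members of this group of 20 were hydroxyproline-rich glycoproteins, while 8 of its 12 decreased members were fasciclin-like arabinogalactan proteins, cell surface adhesion proteins. Fasciclin-like arabinogalactan protein 10, Zm00001d027471, had 116, 113 and 128 CPM in WW24 and 15.7, 17.4 and 19.6 CPM in WS24, a change of −2.76 (SE 0.09, adjusted p = 3.5e-10).

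Genes of very-long-chain fatty acids, suberin and cutin had 22 increased and 8 decreased of 32 members, with a median of 3.88, the highest median of the gene groups other than the marker lists. Suberin is the lipid and phenolic layer that seals the walls of endodermal and exodermal cells. A cytochrome P450 of subfamily 86B, Zm00001d013979, which in Arabidopsis oxidises very-long-chain fatty acids for suberin, had 0.0638, 0.0506 and 0.0687 CPM in WW24 and 18, 19 and 13.8 CPM in WS24, an increase of 8.04 (SE 0.33). Glycerol-3-phosphate acyltransferase 5, Zm00001d038366, which joins such fatty acids to glycerol in Arabidopsis suberin, rose from 0.319, 0.0506 and 0.0458 CPM to 17.5, 14.6 and 7.95 CPM. The 3-ketoacyl-CoA synthase 6 genes, of the enzyme class that elongates fatty acids, were almost without counts in well-watered roots. Zm00001d028241 had 1 count over the 3 WW24 libraries and 1887 counts over WS24, a ratio of 1843 with a counting interval of 330 to 72837, and Zm00001d037328 had 1 count and 1257 counts, a ratio of 1228 with an interval of 220 to 48532. The summed level of the group nevertheless fell, from 1025 to 1384 CPM in WW24 to 658 to 704 CPM in WS24, because abundant GDSL-like lipases decreased. Except for Zm00001d041596, glycerol-3-phosphate acyltransferase 1, all decreased members were GDSL-like lipases.

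Lipid-transfer proteins, which carry lipids to the cell surface, had 16 increased and 7 decreased of 29 members, with a median of 3.01. Their summed level nevertheless fell, from 2591 to 3002 CPM in WW24 to 1976 to 2340 CPM in WS24. Zm00001d033595 rose from 0.851, 0.38 and 0.527 CPM to 22.8, 24.7 and 28.2 CPM, an increase of 5.40 (SE 0.23), and the decrease of Zm00001d017508 is given above. Phenylpropanoid and flavonoid genes had 13 increased and 10 decreased of 29. All 10 decreased members but the chalcone synthase family gene Zm00001d052915 were O-methyltransferases, for example Zm00001d029359, at 258, 287 and 351 CPM in WW24 and 62.8, 61 and 75.5 CPM in WS24. Laccases, which polymerise lignin precursors, increased, and laccase 12 (Zm00001d012477) had 0.128, 0.0759 and 0.0229 CPM in WW24 and 18.1, 14.1 and 6.8 CPM in WS24, with WS24 replicate 3 the lowest stressed library. Sterol and terpenoid cyclase genes had 9 increased and 4 decreased of 14, and farnesyl diphosphate synthase 1, Zm00001d011673, which makes the precursor of sterols, rose from 0.574, 1.29 and 1.01 CPM to 48.4, 30.2 and 40.9 CPM. The summed level of this sterol group nevertheless fell, from 547 to 651 CPM in WW24 to 348 to 407 CPM in WS24.

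By number of members, jasmonate and ethylene genes mostly decreased. In the jasmonate group 9 of 12 members decreased and 2 increased, with a median of −1.89. The summed level of the jasmonate group nevertheless rose, from 286 to 369 CPM in WW24 to 500 to 549 CPM in WS24. 12-Oxophytodienoate reductase 1, Zm00001d011097, of jasmonate synthesis, had 84.6, 95.5 and 124 CPM in WW24 and 11.1, 16.1 and 15.6 CPM in WS24, a change of −2.83 (SE 0.35). The jasmonate-ZIM-domain repressor Zm00001d027901, whose transcript is induced by jasmonate in Arabidopsis, fell from 31.8, 49 and 43.4 CPM to 10.9, 14.7 and 7.04 CPM. Lipoxygenase 1, Zm00001d033623, an enzyme that oxidises polyunsaturated fatty acids, moved the other way, from 34.5, 34.1 and 33.3 CPM to 467, 409.7 and 459 CPM. The other increased member was the lipoxygenase Zm00001d002000, at 1.77, 0.304 and 0.275 CPM against 10.6, 10.4 and 12.4 CPM.

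In the ethylene group 7 of 10 members decreased and 2 increased, with a median of −1.82. Its summed level was 59.7 to 64.7 CPM in WW24 and 58.6 to 68.8 CPM in WS24. The ACC synthase Zm00001d033862, which makes the ethylene precursor, had 5.13, 8.48 and 7.03 CPM in WW24 and 0.575, 1.19 and 0.636 CPM in WS24, a change of −3.09 (SE 0.32), and Zm00001d026060, also described as an ACC synthase, decreased by 4.18 (SE 0.41). The increased members were the response factors Zm00001d022461 (2.22, SE 0.15) and Zm00001d043205 (1.64, SE 0.12). Auxin, gibberellin and brassinosteroid genes had 11 increased and 7 decreased of 18. The gibberellin-regulated gene Zm00001d033369 rose from 0.234, 0.0253 and 0.275 CPM to 32.3, 23.4 and 27.1 CPM. Ent-kaurenoic acid hydroxylase 2, of gibberellin synthesis, decreased at both of its genes, Zm00001d028694 (−2.39, SE 0.45) and Zm00001d047830, which had 177 counts in WW24 and 3 counts in WS24, a ratio of 60.4 with a counting interval of 20.3 to 296.

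Transcription factors were evenly divided, with 15 increased and 13 decreased of 35 WRKY, NAC and MYB genes and a median of 0.17. Myb domain protein 305, Zm00001d027623, had 1.49, 0.684 and 0.733 CPM in WW24 and 69.2, 60.6 and 80.2 CPM in WS24, an increase of 6.15 (SE 0.24). A NAC factor, Zm00001d038221, rose from 12.3, 11.5 and 12 CPM to 97.3, 86.3 and 105 CPM. WRKY24, Zm00001d012789, had 0 counts in WW24 and 682 counts in WS24, at 7.14, 5.85 and 2.03 CPM, which is 222-fold over the floor of 3 counts. Myb domain protein 86, Zm00001d039700, went the other way, from 529 counts in WW24 to 1 count in WS24.

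Calcium signalling genes decreased more often than they increased, with 16 decreased and 6 increased of 24 and a median of −1.27. Their summed level was nevertheless higher in WS24, at 458 to 521 CPM against 436 to 455 CPM in WW24. The calcium-binding EF-hand gene Zm00001d014325 was the exception by size and had 3.02, 1.87 and 1.83 CPM in WW24 and 207, 199.9 and 292 CPM in WS24, an increase of 6.69 (SE 0.23). CBL-interacting protein kinase 5, Zm00001d005748, a calcium-sensor kinase, rose from 0.447, 0.405 and 0.366 CPM to 8.73, 9.88 and 10.3 CPM, and the calcium pump Zm00001d026253 increased by 2.65 (SE 0.12). The decreased members were EF-hand proteins, calmodulin-like proteins, a calcium pump and kinases, with changes between −1.93 and −1.07. Receptor-like kinases had 21 decreased and 15 increased of 65. The leucine-rich repeat kinase Zm00001d037666 decreased from 38.2, 38.3 and 39.3 CPM to 13.2, 13.6 and 15.4 CPM.

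Of 5 aquaporins, the channels through which water crosses membranes, 2 increased and 2 decreased, or 2 and 1 without scaling factors. Plasma membrane intrinsic protein 2, Zm00001d019563, was the most abundant and had 1586, 1679 and 1702 CPM in WW24 and 750.1, 766 and 884 CPM in WS24, a change of −1.05 (SE 0.10) that was no longer called without scaling factors. A second gene of that description, Zm00001d051174, had a change of −0.77 (SE 0.10) and was not called. The NOD26-like protein 5;1 gene Zm00001d018037, of a channel family that carries small solutes such as boric acid, rose from 5.83, 3.49 and 5.13 CPM to 76.8, 71.8 and 89.6 CPM, and Zm00001d052261 of the same description increased by 2.70 (SE 0.27). Tonoplast intrinsic protein 1;3, Zm00001d048520, had 4.38, 16.2 and 13.4 CPM in WW24 and 2.34, 1.38 and 1.59 CPM in WS24. Pathogenesis-related proteins had 13 increased and 6 decreased of 27, and all 7 chitinases of the group and all 4 osmotin 34 genes increased, for example osmotin 34 Zm00001d043121, from 0.319, 0.38 and 0.229 CPM to 34, 42.3 and 13.7 CPM.

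The cytoskeleton and cell division group had 9 decreased and 5 increased of 22. Actin 7, Zm00001d032480, had 505, 559.8 and 581 CPM in WW24 and 118, 103 and 107 CPM in WS24, a change of −2.33 (SE 0.10). Tubulin alpha-5, Zm00001d006651, fell from 526, 581 and 608 CPM to 208, 192 and 204 CPM. Other genes described as actin 7 were not called, and the abundant Zm00001d011087 had means of 752 CPM in WW24 and 680 CPM in WS24. Reads from near-identical actin copies may have been divided between them, so the level of each is uncertain. Cyclin D4;1 (Zm00001d050475, 1.51, SE 0.15) and cyclin d5;1 (Zm00001d028092, 3.01, SE 0.34), regulators of entry into the cell cycle, and histone H1-3 (Zm00001d045478, 3.21, SE 0.36) increased. The call of RPA70-kDa subunit B (Zm00001d032606, 1.05, SE 0.21), of DNA replication, was lost without WW24 replicate 2, without WS24 replicate 1 and with limma-voom.

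Markers of cell types were drawn from the same descriptions, and their part in the results above was not tested. Except for 3 vascular markers, all were genes the study had listed as changed at 48 h. Their counts are therefore no independent evidence that a cell type changed. All 7 markers of suberised endodermis increased, and their summed level was 3.37 to 4.81 CPM in WW24 and 53.9 to 72.9 CPM in WS24. This list shares 4 genes with the suberin group. Of 7 vascular markers 2 increased and 4 decreased, with a summed level of 1126 to 1213 CPM in WW24 and 386 to 423 CPM in WS24, nearly all of it from both genes of fasciclin-like arabinogalactan protein 11. Both root hair and epidermis markers increased, from 7.57 to 14.2 CPM to 47.9 to 58.5 CPM, but only 1 of them was called without WS24 replicate 3. Of 8 markers of dividing cells 4 increased and 3 decreased (2 without WS24 replicate 3 and 1 without scaling factors), with a summed level of 121 to 125 CPM in WW24 and 160 to 181 CPM in WS24. None of these marker genes had a mean of 0 in either treatment. The descriptions used here held no root cap marker.

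Most called features had no description, 1742 of the increased and 958 of the decreased. Zm00001d044078 had 0.149, 0.203 and 0.137 CPM in WW24 and 56.6, 55.4 and 72.9 CPM in WS24, an increase of 8.55 (SE 0.26). Zm00001d019704 rose from 0.851, 0.608 and 1.01 CPM to 145, 117 and 129.7 CPM, with the smallest SE among the undescribed genes named here (7.30, SE 0.15). Zm00001d042307 fell from 16.6, 20.5 and 19 CPM to 0.442, 0.339 and 0.489 CPM. Of all increased features 60 had 0 counts in WW24. Set against a floor of 3 counts per treatment, they were 26.0-fold higher in WS24 at the median and 335-fold higher at the most. The 17 decreased features with 0 counts in WS24 were 13.7-fold lower at the median, against the same floor.

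Most of the 24 h response was also called after 48 h. The 48 h comparison shares no library with the 24 h comparison, and it called 1926 features increased (7.20%) and 1840 decreased (6.88%). Of the 24 h increases 1524 were also increased at 48 h, which is 61.5% of the 24 h list and 79.1% of the 48 h list. Of the 24 h decreases 1078 were also decreased at 48 h, 71.5% of the 24 h list and 58.6% of the 48 h list. Only 8 increased and 2 decreased features were called in the opposite direction at 48 h. Among the 24 h increases the median change was 1.90 at 24 h and 1.42 at 48 h, and among the decreases −1.61 and −1.52. These members were chosen for their 24 h change, so a smaller median at 48 h is no test of a weaker response.

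**Figure D4:**
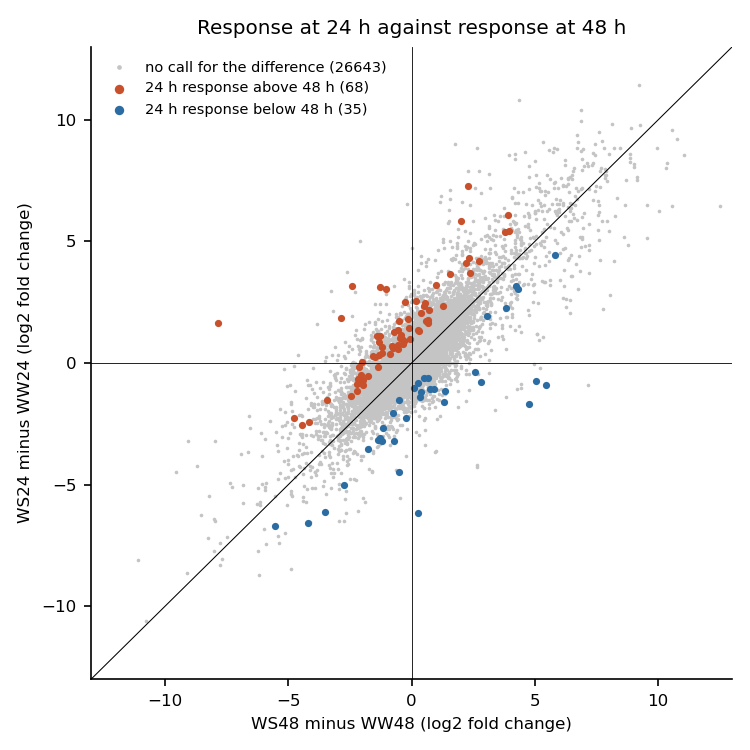
Change at 24 h (vertical axis) against change at 48 h (horizontal axis), both on the log2 scale, with a point per tested feature and the identity line. The 68 features whose 24 h change was above the 48 h change and the 35 below it are coloured, and the other 26643 features had no call in the test of the difference.

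The difference between both responses was itself tested. With the same thresholds, the 24 h change lay above the 48 h change in 68 features (0.254%) and below it in 35 (0.131%). This count depended on single libraries of both times. It was 5 above and 8 below without WS48 replicate 1, 12 and 15 without WS48 replicate 2, 25 and 25 without WW24 replicate 2, 27 and 16 without WS24 replicate 1, 26 and 18 without WS24 replicate 2, 43 and 24 without WW24 replicate 3, 159 and 56 without WW24 replicate 1, 114 and 39 without WS48 replicate 3, and 170 and 39 without WW48 replicate 3. Of the features above, 11 were increased at both times, 21 only at 24 h and 17 decreased only at 48 h.

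The LEA gene Zm00001d009382 was an early increase. It had 0.0426, 0.0506 and 0 CPM in WW24 and 5.73, 4.03 and 6.11 CPM in WS24, while at 48 h it had 0.154, 0.24 and 0.256 CPM in WW48 and 1.01, 1.13 and 1.03 CPM in WS48. The stressed level was higher at 24 h and the well-watered level was lower, and the changes differed by 5.02 (SE 0.61, adjusted p = 0.00584). Lipoxygenase 1 (Zm00001d033623) had 56.1, 44.4 and 36.8 CPM in WW48 and 211, 235 and 268 CPM in WS48, so its increase of 3.71 at 24 h exceeded that of 2.38 at 48 h by 1.34 (SE 0.18, adjusted p = 0.0105). That call was lost without WS48 replicate 1.

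Some decreases were deeper at 24 h. The lipid-transfer protein Zm00001d017508 had 293, 309.6 and 278 CPM in WW48 and 20.8, 21.3 and 35.9 CPM in WS48, so its stressed level was higher than the 4.02 to 5.81 CPM of WS24. Its changes of −6.11 and −3.50 differed by −2.61 (SE 0.26, adjusted p = 0.00202). The methylenetetrahydrofolate reductase gene Zm00001d047124 had 2.52, 3.15 and 2.07 CPM in WS48 against 0.84, 0.361 and 0.538 CPM in WS24, and its changes differed by −2.36 (SE 0.29). The undescribed gene Zm00001d029769 had 31.1, 17.4 and 50.5 CPM in WW24 and 0.708, 0.361 and 0.294 CPM in WS24. It was already low in well-watered roots at 48 h, at 0.579, 0.384 and 0.769 CPM, and the changes differed by −6.41 (SE 0.65), with the stressed levels of both times below 1 CPM.

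**Figure D5:**
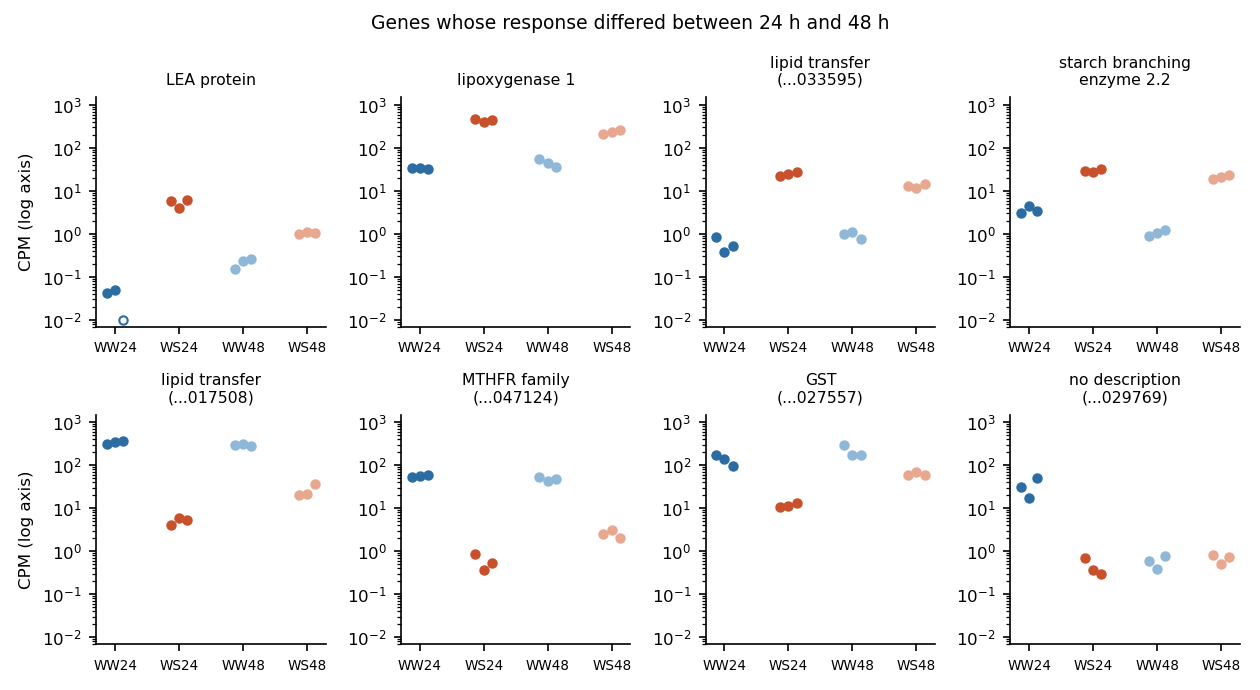
Level in CPM (log axis) of 8 genes in each library of WW24, WS24, WW48 and WS48, with a dot per library and an open circle at 0.01 CPM for 0 counts. For the LEA gene Zm00001d009382 WS24 lies at 4.03 to 6.11 CPM and WS48 at 1.01 to 1.13 CPM, and for Zm00001d029769 only WW24 stands above the other groups, at 17.4 to 50.5 CPM.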

How the data were processed

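Per the labels, poly-A RNA was sequenced from root tips, and the authors aligned reads to B73 RefGen_v4 with an FR697 assembly (HISAT2) and deposited read counts per gene (HTSeq 0.6.1). Whether counting used the strand of the reads is not stated, so values of genes that overlap on either strand are uncertain. A second set of deposited columns, the authors' scaled counts rounded to whole numbers (unit: score), was not used.

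Raw counts of all 12 libraries, 40005384 to 54863708 per library over 42976 features, entered a single fit in edgeR 4.0.16 (R 4.3.3): a filter at a minimum count of 10, TMM scaling (factors 0.926 to 1.06), the quasi-likelihood test and Benjamini-Hochberg adjustment over 26746 features. The SE is the change divided by the root of F. The biological coefficient of variation was 15.7% over the 24 h libraries. Replicates of a group differed beyond sampling noise. Ratios against 3 or fewer counts carry 95% exact intervals, and the floor is 3 counts over the 3 libraries of a treatment, both covering counting error only. A fold over the floor can exceed the lower limit of such an interval. On data simulated for the 24 h comparison with 26268 genes, 54% of 50 genes changed by 1 on the log2 scale were recovered. The share was 94% at 1.5 and 100% at 2. Every simulated gene had the same spread, and only genes with an average of at least 50 counts were changed. The recovery of genes with fewer counts or a wider spread was therefore not tested.

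Genes were named by rule: the 8 described increases and 8 decreases with the largest change at an average log2 CPM of at least 2 and no overlap, the 4 each way with the largest CPM difference, the 2 smallest adjusted p in each group, the 4 each way in the test of the difference between times, and 2 undescribed genes each way. The other 79 were chosen after their values were seen. The comparison and the gene groups were chosen with earlier results of these data known. Descriptions came from the study's tables by gene ID only. Alternatives were scaling (DESeq2 1.42.0 size factors, upper quartile, none), filters, DESeq2, limma-voom (limma 3.58.1), edgeR's glmTreat, adjusted p alone, a replicate block, the libraries of the comparison alone, and each library left out. No genome sequence was used here.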

Additional observations from a re-analysis of the deposited data

Results flagged for a closer look

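The test of the difference between the 24 h and 48 h changes (edgeR's quasi-likelihood test) found 68 features with a 24 h change above the 48 h change and 35 below it, out of 26746. Among named genes, 12 differed between times. Most of these 12 were named for their result in this same test. Their number was therefore largely fixed by the naming rule and is no result about the named genes. The difference is the 24 h change minus the 48 h change on the log2 scale.

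It was 5.02 (SE 0.61) for the LEA gene Zm00001d009382, 1.74 (SE 0.19) for the CBS domain gene Zm00001d017375, −2.36 (SE 0.29) for methylenetetrahydrofolate reductase Zm00001d047124, −2.61 (SE 0.26) for the lipid-transfer protein Zm00001d017508 and −6.41 (SE 0.65) for the undescribed Zm00001d029769. These 5 kept their call when any of the 12 libraries was left out. Zm00001d017375 decreased at both times, by 2.41 at 24 h and by 4.14 at 48 h, with WS24 at 5.99, 5.81 and 6.95 CPM and WS48 at 2.93, 2.96 and 2.52 CPM.

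The difference was 1.34 (SE 0.18) for lipoxygenase 1 (Zm00001d033623) and 1.07 (SE 0.15) for xyloglucan endotransglucosylase/hydrolase 25 (Zm00001d014617), and both lost the call only without WS48 replicate 1. Zm00001d014617 decreased by 1.16 at 24 h and by 2.23 at 48 h.

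Another 5 lost the call when any of 7 to 9 of the 12 libraries was left out. They were methylenetetrahydrofolate reductase Zm00001d029853 at −1.16 (SE 0.21), starch branching enzyme 2.2 (Zm00001d016684) at −1.27 (SE 0.22), the GST Zm00001d027557 at −1.73 (SE 0.31), the pectin lyase-like gene Zm00001d044110 at −1.06 (SE 0.19) and the lipid-transfer protein Zm00001d033595 at 1.62 (SE 0.31). Starch branching enzyme 2.2 increased by 3.03 at 24 h and by 4.30 at 48 h, and its WW48 libraries, at 0.887, 1.08 and 1.26 CPM, were below its WW24 libraries, at 3.09, 4.4 and 3.34 CPM. For Zm00001d027557, WS24 lay at 10.8, 11.1 and 13.5 CPM and WS48 at 60.4, 67.9 and 59.7 CPM.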

How the results depend on the processing

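No feature called in WS24 against WW24 was called in the opposite direction under any alternative run, and the counts stayed within a factor of 1.5 except as follows. With glmTreat, whose null is any log2 change up to 1, 1224 features increased and 640 decreased at 24 h, 910 and 798 at 48 h, 763 and 464 at both times, and the difference between times was called in 1 feature above and 3 below. With adjusted p alone the counts were 5868 and 5727 at 24 h, 5261 and 5488 at 48 h, 3993 and 4035 at both times, and 103 above and 64 below for the difference. A filter above 3 CPM, which tests fewer features, gave 1578 increased at 24 h and 1175 increased at 48 h. For the difference between times, no filter gave 133 above and 53 below, DESeq2 gave 333 and 93, and limma-voom gave 44 and 22. The causes were not tested. Replicate numbers did not pair the 24 h libraries (correlations of deviations −0.039, 0.016 and 0.044). Between WW48 and WS48 the correlations were −0.300, −0.127 and −0.504 for libraries of the same number. They reached 0.477 for libraries of different numbers (WW48 replicate 3 with WS48 replicate 2). With the replicate block 2420 increased and 1460 decreased at 24 h and 40 lay above in the difference. Leaving out each of a comparison's own 6 libraries gave 2313 to 2647 increased and 1379 to 1478 decreased at 24 h and 1707 to 1934 and 1621 to 1942 at 48 h, and leaving out each 48 h library gave 2474 to 2568 and 1507 to 1529 at 24 h. Leaving out each of the 12 libraries gave 1379 to 1544 and 995 to 1092 at both times, and 5 to 170 above and 8 to 56 below for the difference. Of 166 named genes, 15 lost the call with glmTreat and 8 in another setting. Within gene groups, glmTreat lowered the decreased members from 16 to 9 for calcium signalling, from 14 to 8 for xyloglucan, pectin and glucan enzymes, from 9 to 5 for cell division and cytoskeleton, from 8 to 5 for raffinose and trehalose, from 7 to 4 for lipid-transfer proteins, from 6 to 3 for pathogenesis-related proteins and from 5 to 3 for sugar transporters and for glycolysis, and the increased receptor-like kinases from 15 to 9.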

Other observations

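Of 1499 tested features with IDs of assembled transcripts in place of annotated genes, 109 increased (7.27%) and 64 decreased (4.27%), near the shares of all features. Among 66 tested features that carry only a protein similarity label, 8 increased (12.1%) and 3 decreased (4.55%), against 9.27% and 5.64% of all features. These shares are near each other, so the features below are single examples and not a trait of the class. The feature with similarity to the small heat shock protein HS16A had 0.0638, 0.177 and 0.0229 CPM in WW24 and 24.1, 18.9 and 12.5 CPM in WS24, an increase of 7.72, and the features similar to the heat shock factor HFC1B and the heat shock protein HSP7H increased by 6.09 and 5.40. The feature similar to the pectinesterase PME68, of an enzyme class that removes methyl groups from pectin, had 28.4, 31.6 and 29.7 CPM in WW24 and 8.23, 10.6 and 10.6 CPM in WS24.

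Of 31 tested mitochondrial features 3 increased (9.68%) and 2 decreased (6.45%), shares near those of all features (9.27% and 5.64%), in libraries made from poly-A RNA. Without WS24 replicate 3 only 1 of the 3 increases was called. The reading frame orf111-b had 27.1, 19.7 and 25.1 CPM in WW24 and 33.5, 33.2 and 248.6 CPM in WS24, an increase of 2.13 that was 0.48 and no longer called without WS24 replicate 3. The increase of orf1159 was 1.93 and, without that library, 0.78 (adjusted p = 0.389, not called). The increase of cox3, a subunit of cytochrome oxidase, was 1.99 with that library and 1.25 without it, called in both.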
